A study of Mus musculus with 20 samples.

Results

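Myeloid-derived suppressor cells and mesenchymal stem cells were the groups that a mouse study of glioma called precursors of its transformed lines, and 5 of its 20 RNA sequencing libraries belonged to them. The comparison set the 3 libraries labelled MDSC against the 2 labelled MSC, across all genes of the count table, and members were taken from the labels alone. The other 15 libraries came from 5 groups of transformed lines and entered the fit for the filter on low counts and the estimate of spread, and serve as points of reference for the distances given later. The study asked what became of host cells beside a human glioma. Both groups carried the strain label Nude Mouse, with no genotype, treatment, age or animal number beside it. Nude mice lack a working thymus because of a defect in Foxn1, and so make few mature T cells, while B cells, natural killer cells and myeloid cells are still formed. The labels describe MDSC as immunosuppressive cells of myeloid origin, without naming a tissue, and MSC as normal cells of the bone marrow. Cells were grown in DMEM with 10% fetal bovine serum, and the growth protocol names subculture and monoclonal culture for malignant cells, MDSC and MSC alike. The MDSC libraries held transcripts of neutrophils, B cells and red cells together. Which cells the libraries were made from, and whether this protocol applied to them, was not tested. RNA was extracted with TRIzol.

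Myeloid-derived suppressor cells are immature granulocytic and monocytic cells that expand in tumours and inflammation, carry CD11b (Itgam) with Ly6G or Ly6C, and restrain T cells through arginase, nitric oxide, reactive oxygen and ligands such as PD-L1. Mesenchymal stem cells of the marrow are adherent stromal cells that make collagen and the factors holding blood stem cells in place, can form bone, fat and cartilage, and lack CD45, the common leukocyte antigen. Marrow stromal cultures that are made by adherence often also hold macrophages, and marrow cells that are not sorted hold granulocytes, B cells and red cell precursors.

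The deposited counts summed to 9946852, 9117398 and 10397525 in MDSC and to 10664747 and 11147516 in MSC, within the 8794777 to 12400640 of the series. The share of reads in introns was 10.4%, 10.3% and 9.64% in MDSC and 2.07% and 3.09% in MSC, so this measure of RNA quality moved with the group and its part in the results was not tested. The 3 MDSC libraries agreed closely with each other. Their chi-square per degree of freedom over genes with at least 20 counts was 1.72 to 3.32, where sampling noise alone gives values near 1, against 41.7 for the pair of MSC libraries and 25.6 to 282 for pairs within the lines. Nothing in the labels says that libraries of a group came from separate cultures or animals, so the spread behind each p-value may be technical. It was estimated over all 7 groups with 13 residual degrees of freedom, against 3 for MDSC and MSC alone. It came largely from the lines, whose libraries agreed less closely than those of MDSC. Levels are CPM, counts relative to the library total after TMM scaling, which allows a gene to be compared between libraries but not with other genes. In bulk RNA, fewer cells of a type and less RNA per cell cannot be told apart.

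MDSC and MSC differed in a large part of the transcriptome. Counts over the 20 libraries were enough to test 15779 genes. Of these, 182 had 0 counts in all 5 MDSC and MSC libraries. Of the 15779 genes, 3212 (20.4%) were higher in MDSC and 4047 (25.6%) lower, by edgeR's quasi-likelihood test at a Benjamini-Hochberg adjusted p under 0.05. These calls made up 46% of tested genes, 8520 did not pass, and the median log2 fold change of all tested genes, MDSC over MSC, was -0.07. The shares of 20.4% and 25.6% are the background for the counts of list members given below. Differences were often large: 1294 genes were over 10-fold higher and 1423 over 10-fold lower, and 524 and 382 of these passed 100-fold. The levels of the 3 MDSC libraries lay wholly above or wholly below those of the 2 MSC libraries for 82.1% of tested genes, so separation without a test carried little information. The profiles lay 2.28 to 2.45 log2 units apart (root mean square over tested genes), against 0.413 to 0.417 among MDSC and 0.719 between the MSC libraries. The profile distance from MSC to the libraries of the transformed lines was 1.94 to 2.25 on the same scale, and from MDSC to those libraries 2.80 to 3.09.

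**Figure D1:**
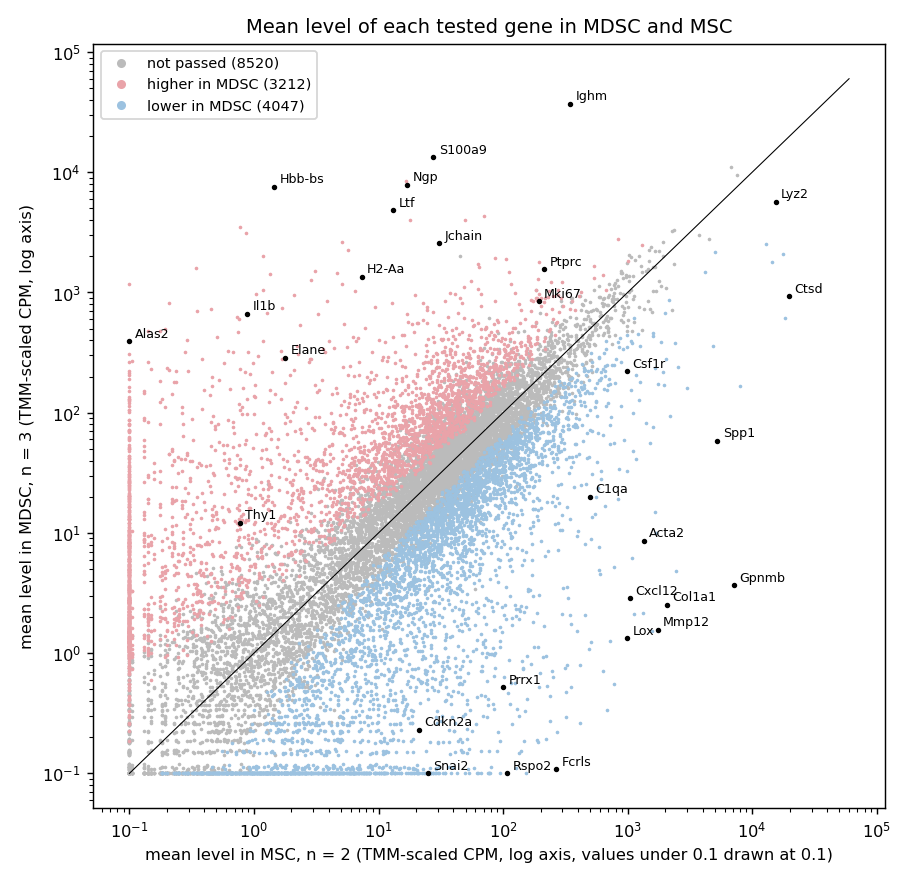
Mean level in MSC (x axis) against mean level in MDSC (y axis) of each tested gene, in TMM-scaled CPM on log axes, with values under 0.1 drawn at 0.1 and genes called higher or lower in MDSC coloured. The 3212 genes called higher and 4047 called lower form broad wings on both sides of the diagonal.

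Genes of the neutrophil lineage formed one of the largest blocks of RNA in MDSC. Every measured gene of 3 lists was higher there: 10 of 10 genes of the early granule stage (median log2 fold change 7.21), 10 of 10 of the secondary granules that are filled next (8.71) and 15 of 15 of the mature cell (8.95). S100a8 and S100a9 encode the 2 chains of calprotectin, the most abundant protein of neutrophil cytosol and a classical marker of granulocytic suppressor cells. S100a9 (ENSMUSG00000056071, chromosome 3, 90692632 to 90695721, in the deposited annotation) was at 12728, 13639.5 and 13671 CPM in MDSC and 4.27 and 50.8 CPM in MSC. S100a8 was at 8106, 8597 and 8896 CPM in MDSC and 6.67 and 26.9 CPM in MSC. All 3 MDSC libraries exceeded both MSC libraries by more than 100-fold, and the log2 fold changes were 8.92 ± 0.90 and 8.99 ± 0.71 (SE; edgeR adjusted p = 6.0e-07 and 3.6e-08). Per kilobase of transcript, S100a9 at 25567 CPM per kb was the most abundant of the 8 leading genes of MDSC.

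Granule stages were present together in MDSC. Mpo, the myeloperoxidase of primary granules, was at 1036, 999.6 and 1033 CPM in MDSC and 0.104 and 12.7 CPM in MSC. Its companions in that granule, the serine protease genes Elane, Prtn3 and Ctsg, were at 287 ± 12.5, 309 ± 14.7 and 129.9 ± 6.21 CPM (SD, n = 3) in MDSC. In each of these 4 genes MSC 1 was lowest, MSC 2 stood above it, and both lay far below MDSC (edgeR adjusted p at most 4.2e-05). Of the secondary granule genes, Ngp, which encodes neutrophilic granule protein, was at 7686, 7901 and 8101 CPM in MDSC and 2.71 and 31.4 CPM in MSC. Camp (cathelicidin) was at 2559.5, 2647 and 2660.2 CPM in MDSC and 2.08 and 8.08 CPM in MSC. The lactoferrin gene Ltf was at 4692, 4822 and 4924 CPM in MDSC and 1.25 and 25.02 CPM in MSC. Ly6g, the antigen by which granulocytic suppressor cells are sorted, was at 98.8, 105.1 and 112 CPM in MDSC and 0 and 0.0878 CPM in MSC. With a single count in MSC, its ratio was 2211-fold (95% counting interval 397 to 87374) (edgeR adjusted p = 2.8e-06). Of the genes of the mature cell, Cxcr2, the receptor that draws neutrophils out of the marrow, was at 139.9, 142 and 147 CPM in MDSC and 0 and 0.439 CPM in MSC. Retnlg, a resistin-like secreted protein, was at 1356, 1447 and 1473 CPM in MDSC and 0.833 and 1.84 CPM in MSC.

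Promoter sequences of S100a8 and Mpo are shown because both genes were far higher in MDSC and each holds the 8 letters GAGGAAGT or their complement ACTTCCTC, a motif bound by the myeloid factor PU.1 and related ETS proteins. Each line gives the 250 bases before the start of transcription in RefSeq (GRCm38.p6), 5′ to 3′ on the gene's strand, with the match in capitals; a match is not a measured binding site. S100a8 lies on the plus strand at chr3:90668821-90669070 with the match at -172, and Mpo on the plus strand at chr11:87793534-87793783 with the match at -224, counted from the start.
S100a8: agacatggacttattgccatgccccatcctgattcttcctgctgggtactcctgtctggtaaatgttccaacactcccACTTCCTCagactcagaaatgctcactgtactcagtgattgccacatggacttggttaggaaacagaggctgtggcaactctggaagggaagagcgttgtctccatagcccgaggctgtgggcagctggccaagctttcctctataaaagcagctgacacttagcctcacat
Mpo: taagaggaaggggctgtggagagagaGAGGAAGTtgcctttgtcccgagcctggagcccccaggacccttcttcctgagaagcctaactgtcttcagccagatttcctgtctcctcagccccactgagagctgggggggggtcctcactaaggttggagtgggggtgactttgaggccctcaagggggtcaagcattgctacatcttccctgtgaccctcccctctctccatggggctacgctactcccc

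B cell genes were the other dominant block of MDSC. Of 15 genes of the B cell list, 14 were higher in MDSC and none lower (median log2 fold change 9.56), and Blnk, an adaptor of the B cell receptor, did not pass. The list summed to 43906, 44394 and 45945 CPM in MDSC, most of it from Ighm, and to 270.1 and 847 CPM in MSC. Ighm, the heavy chain of immunoglobulin M (ENSMUSG00000076617, chromosome 12, 113418558 to 113422730), held 3.37% of all MDSC counts and was at 36363, 36778 and 38141 CPM in MDSC and 58.6 and 635 CPM in MSC. The 2 MSC libraries differed more than 10-fold from each other in Ighm and both were far below MDSC (log2 fold change 6.74 ± 0.77, edgeR adjusted p = 2.4e-06). Surface molecules of mature B cells followed. Ighd, the heavy chain of naive B cells, was at 504, 482 and 499 CPM in MDSC and 0.208 and 0.176 CPM in MSC. The complement receptor gene Cr2 was at 474, 491 and 469.8 CPM in MDSC and 0.104 and 0.176 CPM in MSC. In both genes every MSC library was under 1 CPM, and Fcer2a (CD23) had 0 counts in MSC, which put it at least 497-fold higher in MDSC against a floor of 3 counts over the group.

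B cell progenitor genes were scarce in the same libraries. Rag1 and Rag2, which cut immunoglobulin genes for rearrangement, were at no more than 0.852 CPM and at 0 counts in MDSC, and Dntt, the enzyme that adds bases at the cut, was at 1.33, 1.32 and 2.02 CPM. Of the 6 tested progenitor genes, 4 were higher in MDSC (2 under DESeq2) and 2 lower, or 1 lower without MSC 2 or any MDSC library. Genes of antibody secretion were more abundant, with 8 of 11 plasma cell genes higher. Jchain, which joins secreted immunoglobulin, was at 2503, 2581 and 2605 CPM in MDSC and 1.25 and 60.3 CPM in MSC. The first constant region of heavy chain gamma, Ighg1, was at 211, 211 and 222 CPM in MDSC and 0 and 0.0878 CPM in MSC. Irf4, a factor of activated B cells and plasma cells, was at 1288, 1285 and 1248 CPM in MDSC and 2.395 and 3.34 CPM in MSC. MDSC were higher in all 3 (edgeR adjusted p at most 6.7e-05). Sdc1, the plasma cell surface proteoglycan CD138 that stromal cells also make, was lower in MDSC at 26.8 ± 1.78 against 105.4 ± 37.1 CPM (SD, n = 3 and 2). That call ended without MSC 1 (edgeR adjusted p = 0.0572). Of 225 immunoglobulin variable segments measured, 145 were tested, 137 were higher in MDSC and none lower, and 65 were higher under DESeq2. Their summed level was 4619.98, 4697 and 4690.3 CPM in MDSC and 4.06 and 120.2 CPM in MSC. Of these, Igkv8-24 stood out at 1596, 1607 and 1611 CPM in MDSC. Reads of near-identical segments can be divided between them, so single segments are uncertain.

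Red cell genes were abundant in MDSC. Of 19 erythroid genes, 18 were higher in MDSC, with a median log2 fold change of 11.96, the largest of all marker lists. In MSC 6 of the 19 had 0 counts and 16 were under 1 CPM, so the size of that median is uncertain. Only Tfrc, the transferrin receptor that all dividing cells use, did not pass. Hbb-bs, an adult beta globin (ENSMUSG00000052305, chromosome 7, 103826534 to 103828096), was at 7329, 7545 and 7811 CPM in MDSC and 2.19 and 0.702 CPM in MSC. Globin genes have near-identical copies, so Hba-a1 and Hba-a2 are uncertain singly; Hba-a1 was at 3479.8, 2971 and 2896 CPM in MDSC and 0.833 and 0.878 CPM in MSC. Both globins lay at or below 2.19 CPM in the MSC libraries. Alas2, the first enzyme of haem synthesis in red cells, was at 397, 389 and 396 CPM in MDSC with 0 counts in MSC, at least 2755-fold higher. Hemgn, a nuclear factor of red cell precursors, also had 0 counts in MSC and was at least 907-fold higher. Slc4a1, the band 3 anion exchanger, had a single count in MSC and a ratio of 24739.9-fold (95% counting interval 4440.000 to 977204). Other genes of the red cell named by size were the carbonic anhydrase Car1, the Rh-associated Rhag, the membrane skeleton gene Epb42 and the ubiquitin ligase Trim10, each with 0 counts in MSC and at least 609-fold higher. For Epb42 the call ended under DESeq2 (adjusted p = 0.0801). Klf1, the master regulator of globin genes, was at 63.05, 53.99 and 61.8 CPM in MDSC and 0 and 0.0878 CPM in MSC.

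The promoter of Hbb-bs is given because the gene marks the erythroid block and holds AGATAAG, the letters read by GATA factors such as Gata1, itself at 35.6, 35.3 and 39.1 CPM in MDSC and 0 and 0.439 CPM in MSC. It lies on the minus strand at chr7:103827929-103828178, with the match in capitals at -210.
Hbb-bs: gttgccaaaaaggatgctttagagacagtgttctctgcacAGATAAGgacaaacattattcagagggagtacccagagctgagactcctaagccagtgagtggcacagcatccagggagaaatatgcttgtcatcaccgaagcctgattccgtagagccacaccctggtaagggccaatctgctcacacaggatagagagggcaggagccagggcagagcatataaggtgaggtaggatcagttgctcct

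Haem synthesis joined the erythroid genes, and iron storage went the other way. In the list of haem and iron genes, 9 of 18 were higher in MDSC and 4 lower. The higher ones included enzymes of the haem pathway. Cpox was at 185, 183 and 181 CPM in MDSC and 14.996 and 15.7 CPM in MSC. Fech, which inserts the iron, was at 205, 204 and 214 CPM in MDSC and 48.3 and 47.3 CPM in MSC. The mitochondrial iron importer Slc25a37 was also higher (log2 fold change 3.18), a call that ended without MSC 1 (edgeR adjusted p = 0.0557). The ferritin chains were lower in MDSC: Ftl1 was at 2095, 2031 and 2145 CPM in MDSC and 21732 and 13929.8 CPM in MSC. Fth1 was at 2519, 2479 and 2589 CPM in MDSC and 14939.5 and 10686 CPM in MSC. Hmox1, which breaks haem down, was at 110.2, 114 and 114 CPM in MDSC and 771 and 572 CPM in MSC, with no overlap between groups for these 3 genes (edgeR adjusted p at most 0.00295).

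Smaller sets of lymphoid and granulocytic transcripts were also found in MDSC. Of 15 tested T cell genes, 12 were higher in MDSC and 1 lower, at low levels. Cd3d, a chain of the T cell receptor complex, was at 24.5, 29.7 and 25.8 CPM with 0 counts in MSC, at least 186-fold higher. Its partners Cd3e and Cd3g reached 3.41 CPM at most. All 133 T cell receptor variable segments measured were too low to test and summed to 2.54, 2.16 and 2.77 CPM in MDSC. The T cell count fell from 12 to 5 under DESeq2. Cd4, which macrophages also express, was lower in MDSC at 8.28 ± 1.32 against 68.6 ± 17.9 CPM (SD, n = 3 and 2). Natural killer genes were all higher, 10 of 10 tested, among them Gzma (granzyme A) at 22.3, 24.4 and 24.3 CPM and Prf1 (perforin) at 8.94, 10.3 and 8.42 CPM in MDSC, both with 0 counts in MSC. Nkg7, a granule protein of cytotoxic cells, was at 33.3, 31.9 and 33.03 CPM in MDSC and 0.104 and 0.0878 CPM in MSC.

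Eosinophil genes were higher in 8 of 10 cases, led by Prg2, the major basic protein, at 316, 313 and 336 CPM in MDSC and 0.104 and 7.29 CPM in MSC. The eosinophil count fell to 3 of 10 under DESeq2, and Epx, the eosinophil peroxidase at 45.9 ± 0.662 CPM (SD, n = 3) in MDSC, lost its call there (adjusted p = 0.379). Of 8 tested mast cell and basophil genes 7 were higher, or 4 under DESeq2, among them Prss34, a basophil protease, at 24.5, 23.1 and 24.9 CPM in MDSC and 0 and 0.0878 CPM in MSC. Hdc, the histamine-forming enzyme that neutrophils and basophils share, was at 724, 723 and 733 CPM in MDSC and 0.729 and 0.176 CPM in MSC. Both genes were under 1 CPM in each MSC library. Stem and progenitor cell genes divided. Of 15, 7 were higher in MDSC, including Kit, the stem cell factor receptor, at 28.7 ± 1.2003 against 2.66 ± 0.657 CPM (SD, n = 3 and 2), Flt3, a receptor of early lymphoid and myeloid progenitors, at 19.1 ± 0.975 against 0.0521 ± 0.0736 CPM and the factor Myb at 54.1 ± 4.93 against 0.568 ± 0.0664 CPM. The other 4 calls were lower in MDSC and included Cd93, which macrophages also carry, at 78.4 ± 0.727 against 387 ± 15.8 CPM. Without MSC 1 the 7 higher calls became 4.

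Megakaryocyte and platelet genes gave few calls, 2 of 11 higher and 2 lower, with 0 higher without MSC 1 and 5 without MSC 2. Pf4, a chemokine of platelets that macrophages also make, was lower in MDSC at 3.98, 2.52 and 3.94 CPM in MDSC and 232 and 369.8 CPM in MSC. The von Willebrand gene Vwf, of platelets and endothelium, was lower at 7.95, 8.66 and 9.38 CPM in MDSC and 85.2 and 26.6 CPM in MSC, a call that ended without MSC 1 (edgeR adjusted p = 0.18). Epithelial and neural genes were low in both groups. The epithelial list summed to 16.3, 18.6 and 19.1 CPM in MDSC and 2.81 and 14.05 CPM in MSC. The neural list summed to 95.5, 100.5 and 87.05 CPM in MDSC and 51.8 and 40.1 CPM in MSC. In the neural sum most of the MDSC level came from Mbp, at 88.005, 93.1 and 79.9 CPM, which blood cells also transcribe. Epcam, an adhesion molecule of epithelium and of some blood progenitors, was at 11.3 ± 1.43 against 0.2195 ± 0.3104 CPM (SD, n = 3 and 2).

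**Figure D2:**
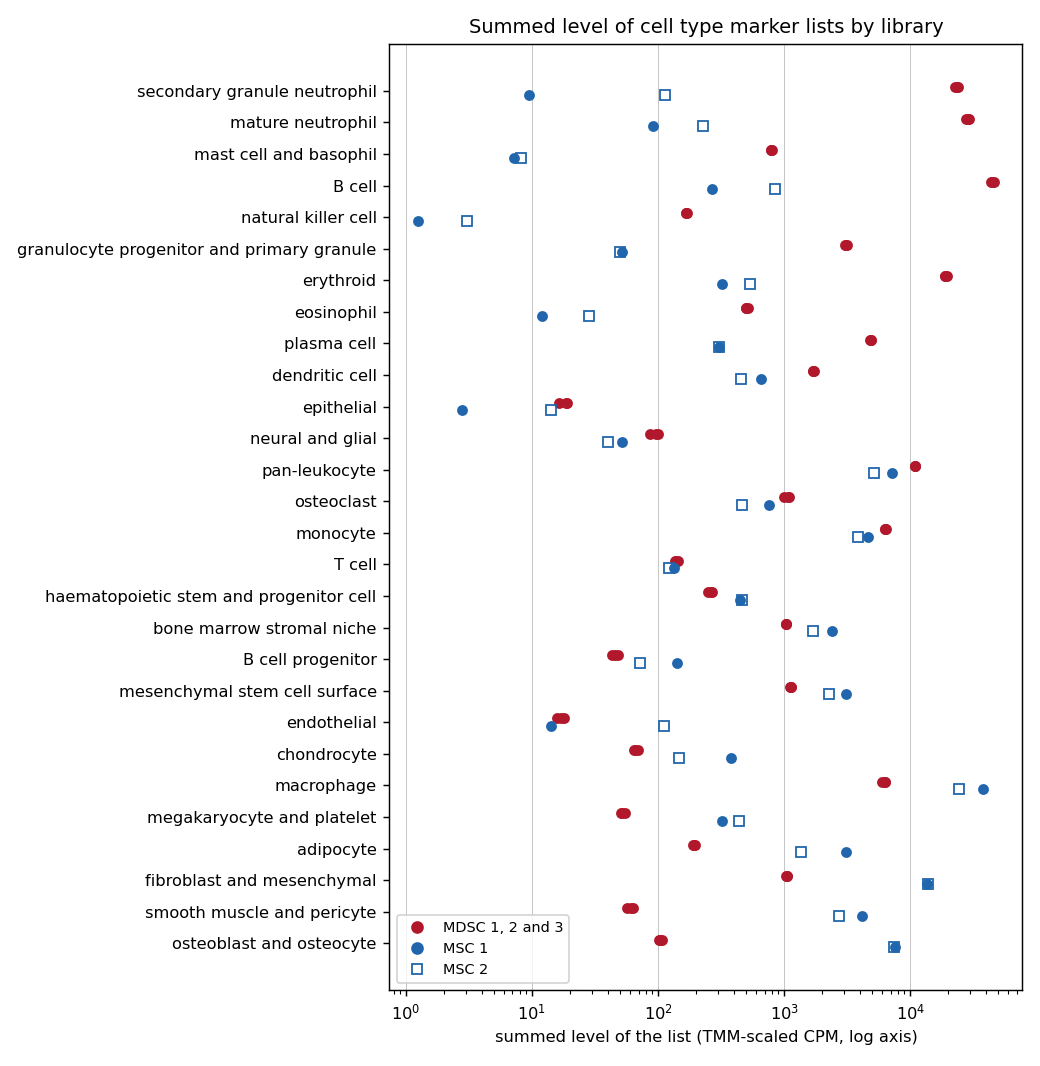
Summed level of each cell type marker list (rows) in every MDSC and MSC library (points), in TMM-scaled CPM on a log axis. The neutrophil, B cell and erythroid sums lie at 3021 CPM or more in MDSC and at 847 CPM or less in MSC, while the fibroblast, osteoblast and smooth muscle sums lie on the other side.

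The myeloid antigens that define suppressor cells were present in MDSC, while their best-known effector enzymes were near 0. Itgam (CD11b) was at 859, 856 and 837 CPM in MDSC and 435 and 283 CPM in MSC, a log2 fold change of 1.24 ± 0.43 (edgeR adjusted p = 0.0255). That call ended when MDSC 1, MDSC 2, MSC 1 or MSC 2 was left out (edgeR adjusted p 0.0505 to 0.201). Ly6c2, the Ly6C antigen of monocytes, was at 651, 659 and 684 CPM in MDSC and 0.312 and 6.23 CPM in MSC (log2 fold change 7.64 ± 0.87, edgeR adjusted p = 2.4e-06). Arg1 (arginase 1) was at 0.221, 0.1202 and 0.107 CPM in MDSC and 0 and 0.176 CPM in MSC and had too few counts to be tested. Nos2 (inducible nitric oxide synthase) was at 1.66, 1.32 and 1.39 CPM in MDSC and 0.312 and 0.263 CPM in MSC and did not pass (edgeR adjusted p = 0.303). Ido1, a tryptophan-degrading enzyme, did not exceed 0.213 CPM in any of the 5 libraries.

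Of 19 tested genes of the suppressor effector and marker list, 10 were higher in MDSC and 1 lower (median log2 fold change 1.38). Cd274, which encodes PD-L1, was at 263, 252 and 256 CPM in MDSC and 37.2 and 30.5 CPM in MSC. Cybb, the catalytic subunit of the oxidase that makes superoxide, was at 969, 963 and 925 CPM in MDSC and 295 and 259 CPM in MSC. Ptgs2, the inducible cyclooxygenase, was at 83.4, 79.6 and 86.1 CPM in MDSC and 2.08 and 6.498 CPM in MSC. All 3 were higher in every MDSC library (edgeR adjusted p at most 0.00359). Olr1, which encodes the lectin-like receptor LOX-1, was at 40.7, 44.7 and 42.5 CPM in MDSC and 0 and 0.263 CPM in MSC. The interleukin gene Il10 was low, at 6.96, 5.05 and 7.25 CPM. Cd84, a receptor of the SLAM family, was the one member lower in MDSC, at 154 ± 7.11 against 399 ± 45.2 CPM (SD, n = 3 and 2), and its call ended without MSC 1 (edgeR adjusted p = 0.0869).

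Monocyte genes were divided between the groups. Of 15, 8 were higher in MDSC and 2 lower, with a median log2 fold change of 1.42. Ccr2, the receptor by which monocytes leave the marrow, was at 152, 146 and 147 CPM in MDSC and 4.17 and 15.5 CPM in MSC. Nr4a1, an immediate early factor of patrolling monocytes, was at 1486, 1409 and 1462 CPM in MDSC and 4.79 and 4.57 CPM in MSC. Klf4, a factor of monocyte fate, was at 445, 448 and 447 CPM in MDSC and 10.8 and 20.2 CPM in MSC. These 3 genes were higher in each MDSC library (edgeR adjusted p at most 1.7e-04). Csf1r, the growth factor receptor on which macrophages depend, was lower in MDSC at 219.96, 224 and 219 CPM in MDSC and 942 and 1019.97 CPM in MSC (log2 fold change -2.15 ± 0.62, edgeR adjusted p = 0.00883). With the MDSC libraries summed to 1 sample its edgeR adjusted p was 0.145 and no gene of the list was called lower, against 1 without MSC 1 and 1 without MSC 2.

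Genes of antigen presentation by MHC class II were higher in MDSC. All 9 class II genes were higher there, with a median log2 fold change of 7.53. H2-Aa, a class II alpha chain, was at 1341, 1336 and 1375 CPM in MDSC and 6.46 and 8.17 CPM in MSC. H2-Eb1, a beta chain, was at 843, 830.1 and 870.4 CPM in MDSC and 2.499 and 5.27 CPM in MSC. Cd74, the invariant chain, was at 4345, 4163 and 4424 CPM in MDSC and 47.1 and 92.5 CPM in MSC. Ciita, the regulator that switches these genes on, was at 107, 108 and 105.3 CPM in MDSC and 0.417 and 0.351 CPM in MSC, so that both MSC libraries stood below every MDSC library by more than 10-fold in these 4 genes (edgeR adjusted p at most 2.1e-05). H2-Ob, a class II modulator made by B cells, was at 165, 159.8 and 164 CPM in MDSC and 0 and 0.0878 CPM in MSC. B cells, dendritic cells and monocytes all use these genes, and which of them carried the RNA was not tested. Of 13 class I genes 3 were higher in MDSC and none lower, beside 20.4% and 25.6% of all tested genes. The light chain B2m was at 1749, 1856 and 1832 CPM in MDSC and 1635 and 1328 CPM in MSC (edgeR adjusted p = 0.44).

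Dendritic cell genes had 8 of 14 members higher in MDSC and 4 lower. Ccr7, which directs migrating dendritic cells and lymphocytes to lymph nodes, was at 704, 687 and 707 CPM in MDSC and 0.521 and 0.176 CPM in MSC. Cd83, a marker of mature dendritic cells that activated B cells share, was at 617, 635 and 631 CPM in MDSC and 48.8 and 23.97 CPM in MSC. The markers of conventional and plasmacytoid dendritic cells were low: Xcr1 was at 2.87, 3.25 and 1.92 CPM, Clec9a at 2.65, 2.405 and 2.66 CPM and Siglech at 2.98, 3.37 and 3.73 CPM in MDSC. Itgax (CD11c) was lower in MDSC at 41.4, 43.8 and 39.95 CPM in MDSC and 226 and 51.1 CPM in MSC. MSC 2 lay near MDSC, and the call ended without MSC 1 (edgeR adjusted p = 0.725). Clec10a, a lectin of dendritic cells and macrophages, was lower at 4.81 ± 0.358 against 17.5 ± 4.398 CPM (SD, n = 3 and 2), a call that any left-out library ended (edgeR adjusted p 0.0956 to 0.228). The 8 higher calls became 5 without either MSC library, and the 4 lower ones 2 without MSC 1.

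Inflammatory and innate sensing genes were mostly higher in MDSC where they were called. The list counts stand beside 20.4% of all tested genes higher and 25.6% lower. Of 15 tested cytokine genes, 7 were higher and 2 lower. Il1b was at 643, 674 and 669 CPM in MDSC and 0.625 and 1.14 CPM in MSC. The oncostatin M gene Osm was at 259.8, 257 and 268 CPM in MDSC and 6.56 and 7.29 CPM in MSC. Tnf was at 148, 136 and 159 CPM in MDSC and 15.1 and 22.4 CPM in MSC. MSC libraries were lower than every MDSC library in these 3 (edgeR adjusted p at most 3.7e-05). Il6 at 15.5 ± 1.87 against 0.403 ± 0.423 CPM (SD, n = 3 and 2) lost its call without MSC 1 (edgeR adjusted p = 0.0524). Without that library 4 of the 7 higher calls were made. Csf1 and Il34, the 2 ligands of the Csf1 receptor, were the ones lower in MDSC: Csf1 was at 68.4, 68.4 and 65.3 CPM in MDSC and 323 and 616 CPM in MSC. Il34 was at 0, 0 and 0 CPM in MDSC and 3.44 and 9.04 CPM in MSC. Of 18 pattern recognition genes, 7 were higher and 1 lower (none without MSC 2). Clec4e (Mincle) was at 425 ± 9.697 against 13.01 ± 2.37 CPM, Tlr2 at 355 ± 8.53 against 34.5 ± 6.63 CPM and Nlrp3, a sensor of the inflammasome, at 356 ± 5.87 against 42.8 ± 0.169 CPM. In the interferon list 6 of 20 were higher and 2 lower, while without either MSC library 2 higher calls and 1 lower call were made. Rsad2 (viperin) was at 79.2 ± 1.34 against 6.16 ± 0.606 CPM. Guanylate-binding proteins had 6 of 7 members higher, led by Gbp4 at 49.6, 56.3 and 51.1 CPM in MDSC and 0.208 and 1.14 CPM in MSC, and 3 higher without MSC 2. Schlafen genes had 4 of 8 higher, among them Slfn4, a myeloid member, at 1511, 1512 and 1488 CPM in MDSC and 0.833 and 5.36 CPM in MSC.

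Chemokine receptors were higher in MDSC in 13 of 19 tested cases and lower in 2. Cxcr4, the receptor that retains cells in marrow, was at 1483, 1471 and 1486 CPM in MDSC and 114 and 109 CPM in MSC. Cxcr5, the follicular receptor of B cells, was at 231, 227 and 237 CPM in MDSC and 0.208 and 0.0878 CPM in MSC. The lower ones included the decoy receptor Ackr4, at 0.107 ± 0.185 against 20.2 ± 17.2 CPM (SD, n = 3 and 2). Of 28 tested chemokine ligands 6 were higher and 11 lower in MDSC, beside 20.4% and 25.6% of all tested genes. Cxcl2, which draws neutrophils, was at 662, 668 and 684 CPM in MDSC and 1.56 and 0.966 CPM in MSC, whereas Cxcl12, the ligand of Cxcr4 and the main retention factor of the marrow, was at 3.75, 1.44 and 3.41 CPM in MDSC and 1502 and 575 CPM in MSC. Receptor and ligand of that pair were highest in different groups. Cxcl14 at 0.187 ± 0.228 against 146 ± 19.2 CPM and Ccl7 at 1.74 ± 0.291 against 73.1 ± 49.1 CPM were also lower in MDSC.

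**Figure D3:**
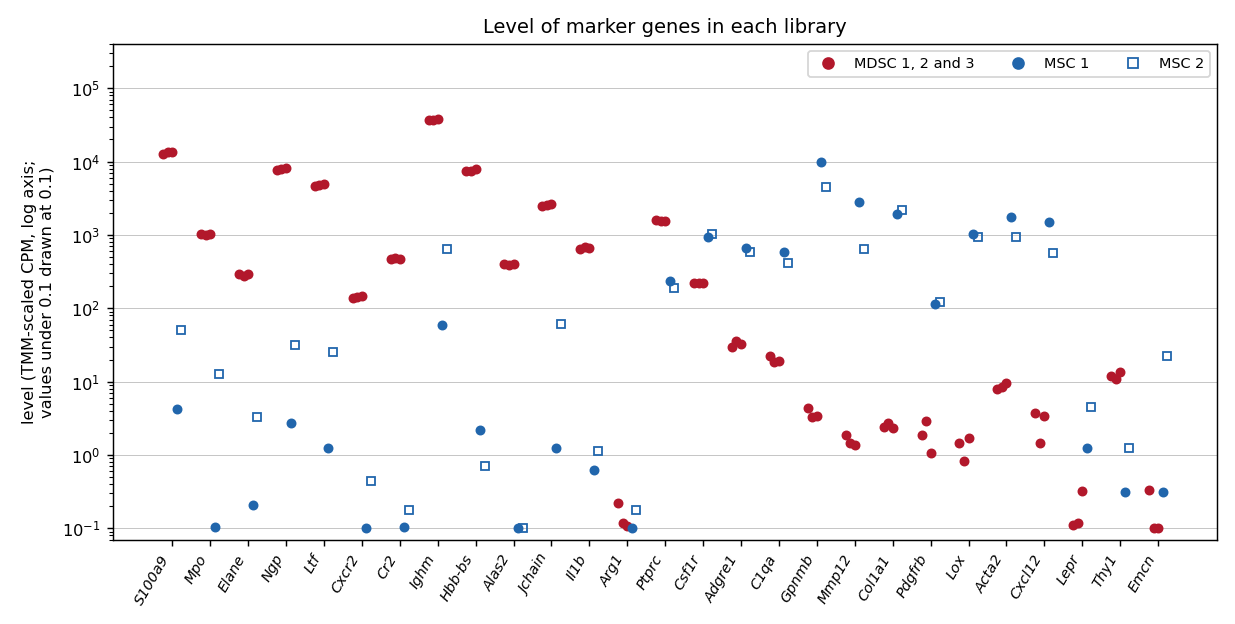
Level of marker genes (x axis) in each MDSC and MSC library (points), in TMM-scaled CPM on a log axis, with values under 0.1 drawn at 0.1. Neutrophil, B cell and erythroid markers at the left lie higher in MDSC, macrophage and stromal genes from Csf1r to Cxcl12 lie higher in MSC, and Arg1 is near 0 in both groups.

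Matrix genes of stromal cells were far higher in MSC. Of 27 fibroblast and mesenchymal genes, 25 were lower in MDSC and 1 higher, with a median log2 fold change of -7.36, and the list summed to 1061, 1060.000 and 1031 CPM in MDSC and 13572 and 13753 CPM in MSC. Col1a1, the main chain of type I collagen (ENSMUSG00000001506, chromosome 11, 94936224 to 94953042), was at 2.43, 2.77 and 2.34 CPM in MDSC and 1948 and 2205 CPM in MSC, and its partner Col1a2 at 5.41, 4.21 and 4.901 CPM in MDSC and 2146 and 2756 CPM in MSC. Every MSC library was over 100-fold above every MDSC library, and the log2 fold changes were -9.68 ± 0.68 and -8.98 ± 0.55 (edgeR adjusted p = 1.1e-08 and 2.5e-09). Sparc, a matrix protein that binds collagen, was at 1.99, 1.202 and 1.39 CPM in MDSC and 1635 and 1488 CPM in MSC. Lox, which crosslinks collagen, was at 1.44, 0.842 and 1.705 CPM in MDSC and 1036 and 949.8 CPM in MSC. Of 44 collagen chains measured, 32 were tested, 21 were lower in MDSC and 2 higher; the higher ones were Col6a4 at 15.3, 17.2 and 17.05 CPM and Col11a2 at 21.5, 21.9 and 20.8 CPM in MDSC. The Col11a2 call ended without MSC 1 (edgeR adjusted p = 0.0677). Fn1 (fibronectin), which monocytes also make, was high in both groups, at 886, 884 and 846 CPM in MDSC and 2566 and 1746 CPM in MSC. Its call as lower in MDSC ended when any library was left out (edgeR adjusted p 0.0601 to 0.247).

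The surface markers used to define mesenchymal stem cells were met only in part. Of 15, 8 were lower in MDSC and 2 higher, 1 without either MSC library (median log2 fold change -2.17). Eng (CD105) was at 11.9, 12.3 and 10.97 CPM in MDSC and 102 and 103 CPM in MSC. The receptor gene Pdgfrb was at 1.88, 2.89 and 1.07 CPM in MDSC and 115 and 122 CPM in MSC. Eng and Pdgfrb were both lower in MDSC (edgeR adjusted p = 1.9e-06 and 4.2e-07). Pdgfra, which marks early stromal progenitors, was at 0.773, 0.481 and 0.107 CPM in MDSC and 23.1 and 49.3 CPM in MSC (edgeR adjusted p = 2.1e-07). Thy1 (CD90) went against the label: it was at 11.9, 10.8 and 13.5 CPM in MDSC and 0.312 and 1.23 CPM in MSC, near 0 in MSC and higher in MDSC (log2 fold change 3.92 ± 0.85, edgeR adjusted p = 0.0012). Nt5e (CD73) was low in MSC too, at 21.4, 20.2 and 19.9 CPM in MDSC and 6.56 and 3.25 CPM in MSC. Its call as higher in MDSC ended when any library was left out (edgeR adjusted p 0.0793 to 0.259). Ly6a (Sca-1) was at 56.98, 59.5 and 58.7 CPM in MDSC and 13.9 and 37.5 CPM in MSC and did not pass (edgeR adjusted p = 0.127). Cd44, the hyaluronan receptor of both lineages, was at 621, 617 and 627 CPM in MDSC and 369 and 317 CPM in MSC and did not pass either (edgeR adjusted p = 0.136). Anpep (CD13) was at 5.41, 4.57 and 5.65 CPM in MDSC and 1144 and 419 CPM in MSC, with both MSC libraries far above MDSC (edgeR adjusted p = 3.8e-07).

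Niche factors of marrow stroma were mostly higher in MSC, with 12 of 15 tested genes lower in MDSC and 2 higher, or 1 higher without MSC 2. Cxcl12 has been given above. Kitl, the membrane ligand that sustains stem cells, was at 0.883, 0.842 and 0.639 CPM in MDSC and 46.03 and 47.5 CPM in MSC. Foxc1, a factor of the reticular cells that surround marrow sinusoids, was at 0.1104, 0.1202 and 0 CPM in MDSC and 26.97 and 29.7 CPM in MSC. The MSC libraries lay close to each other in both genes and far above MDSC. Lepr, the leptin receptor by which those cells are traced, was low at 0.1104, 0.1202 and 0.3196 CPM in MDSC and 1.25 and 4.48 CPM in MSC. Its call ended without MDSC 1 or MSC 2 (edgeR adjusted p 0.0519 and 0.154). Adipoq, another of their markers, did not exceed 0.937 CPM. Ebf1 and Hp were the 2 genes higher in MDSC. Ebf1, which B cells use, was at 145, 142 and 143 CPM in MDSC and 17.2 and 17.1 CPM in MSC. The haptoglobin gene Hp, which granulocytes transcribe, was at 809, 803 and 812 CPM in MDSC and 189 and 77.6 CPM in MSC. Without MSC 2 the Hp call ended (edgeR adjusted p = 0.0665).

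Genes of bone, fat and cartilage were represented unevenly in MSC. Among bone genes 7 of 9 tested were lower in MDSC: Spp1 (osteopontin), which macrophages make too, was at 60.5, 58.4 and 57.2 CPM in MDSC and 5447 and 5060.1 CPM in MSC. Alpl (alkaline phosphatase) was at 8.17, 9.74 and 7.88 CPM in MDSC and 131 and 65.5 CPM in MSC. Sp7 (osterix) was at 0, 0 and 0.107 CPM in MDSC and 23.8 and 18.7 CPM in MSC. Of the genes of mature bone cells, Bglap, Dmp1 and Sost were below 1 CPM in all 5 libraries. Ibsp (bone sialoprotein) was lower in MDSC at 0, 0 and 0.3196 CPM in MDSC and 11.46 and 14.4 CPM in MSC (edgeR adjusted p = 6.8e-04). The Ibsp call ended under DESeq2 (adjusted p = 0.354). Runx2, the first factor of the bone lineage, was at 31.5, 35.7 and 32.5 CPM in MDSC and 13.9 and 15.02 CPM in MSC and did not pass (edgeR adjusted p = 0.104). Of 6 tested fat genes 5 were lower in MDSC: Pparg was at 1.99, 2.52 and 2.34 CPM in MDSC and 40.3 and 37.6 CPM in MSC. Lpl, a lipase that macrophages share, was at 11.04, 10.1 and 9.06 CPM in MDSC and 2447 and 956 CPM in MSC. Plin1, Cfd, Lep and Cidec were at or near 0. Of 11 tested cartilage genes 5 were lower and 3 higher. Col2a1 was at 0.1104, 0.361 and 0.107 CPM in MDSC and 348 and 94.4 CPM in MSC. Sox9, the cartilage regulator, was at 0.331, 0.1202 and 0.107 CPM in MDSC and 3.96 and 8.78 CPM in MSC. Acan, Col9a1 and Hapln1 had 0 counts. Sox6, which red cell precursors also use, was higher in MDSC at 39.1, 41.1 and 37.7 CPM in MDSC and 0.104 and 0.351 CPM in MSC.

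Contractile genes were prominent in MSC. All 12 tested genes of the smooth muscle and pericyte list were lower in MDSC, with a median log2 fold change of -7.18. Acta2, smooth muscle actin (ENSMUSG00000035783, chromosome 19, 34241090 to 34255336), was at 7.84, 8.42 and 9.48 CPM in MDSC and 1748 and 950.4 CPM in MSC. Tagln (transgelin) was at 3.202, 5.77 and 4.58 CPM in MDSC and 695 and 517 CPM in MSC. Myl9, a myosin light chain, was at 1.44, 2.16 and 2.66 CPM in MDSC and 435 and 260.3 CPM in MSC. MSC 1 was above MSC 2 in each, and both lay far above MDSC (edgeR adjusted p at most 2.0e-05). Cnn1 (calponin) was at 0, 0.1202 and 0 CPM in MDSC and 34.8 and 9.57 CPM in MSC, and Des and Rgs5, which mark pericytes, did not exceed 3.25 CPM. Of 21 genes of actin stress fibres and focal adhesions, 14 were lower and 1, Pxn (paxillin), higher in MDSC. The general actin binders Flna and Tln1 were nearly level, at 1625 ± 21.6 against 1610.03 ± 106 CPM and 939.6 ± 10.7 against 971 ± 9.67 CPM (SD, n = 3 and 2).

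Targets of the YAP and TEAD pair, which read mechanical tension in adherent cells, were lower in MDSC in 15 of 18 cases and higher in none, with a median log2 fold change of -5.82. Ccn2 (connective tissue growth factor) was at 0.442, 0.2405 and 0.3196 CPM in MDSC and 819 and 550.02 CPM in MSC, among the 12 largest differences in favour of MSC, and Ccn1 at 0.663, 0.842 and 0.639 CPM in MDSC and 239.7 and 258 CPM in MSC. Yap1 itself was at 0.773, 0.361 and 0.3196 CPM in MDSC and 38.4 and 40.9 CPM in MSC. Tead1 was at 0.1104, 0.481 and 0.533 CPM in MDSC and 32.1 and 44.8 CPM in MSC. Both regulators were under 1 CPM in each MDSC library, while both MSC libraries held them at 32.1 CPM or more. In the TGF-beta and BMP list 16 of 27 were lower and 2 higher, 1 without MSC 1 (median -3.15). The ligand genes Tgfb2 and Bmp4 were at or near 0 in MDSC. Tgfb2 was at 0, 0.1202 and 0 CPM in MDSC and 27.8 and 25.4 CPM in MSC. Bmp4 was at 0.221, 0.1202 and 0 CPM in MDSC and 53.7 and 19.4 CPM in MSC. Tgfb1 was at 169.9, 148 and 159 CPM in MDSC and 349 and 313 CPM in MSC and did not pass (edgeR adjusted p = 0.0508). The inhibitor gene Smad7 was higher in MDSC at 128, 113 and 129 CPM in MDSC and 15.9 and 20.6 CPM in MSC.

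Promoters of Acta2 and Ccn1 are shown because these genes stood for the contractile and the YAP and TEAD sets and hold GGAATG or its complement CATTCC, the letters read by TEAD factors. Both lie on the minus strand, Acta2 at chr19:34255374-34255623 with the match at -146 and Ccn1 at chr3:145649986-145650235 with the match at -103.
Acta2: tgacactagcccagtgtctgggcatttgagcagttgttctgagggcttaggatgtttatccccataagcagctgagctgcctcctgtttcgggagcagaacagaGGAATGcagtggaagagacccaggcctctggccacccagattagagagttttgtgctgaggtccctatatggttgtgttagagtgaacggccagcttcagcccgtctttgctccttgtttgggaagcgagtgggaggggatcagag
Ccn1: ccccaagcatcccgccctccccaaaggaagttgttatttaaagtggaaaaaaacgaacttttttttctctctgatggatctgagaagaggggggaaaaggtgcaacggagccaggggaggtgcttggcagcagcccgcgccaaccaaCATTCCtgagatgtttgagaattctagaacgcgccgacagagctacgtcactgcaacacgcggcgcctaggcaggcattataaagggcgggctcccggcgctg

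Matrix remodelling genes were more often lower than higher in MDSC where they were called. Of 16 tested matrix metalloprotease genes 9 were lower in MDSC and 3 higher. The higher ones encode proteases that neutrophils store. Mmp8 was at 557, 549 and 554 CPM in MDSC and 3.44 and 38.1 CPM in MSC. Mmp9 was at 732, 679.6 and 719 CPM in MDSC and 21.04 and 28.4 CPM in MSC, and Mmp25 reached 83.5, 78.03 and 80.8 CPM in MDSC and 0 and 0.351 CPM in MSC. The most abundant of the lower ones was the macrophage elastase gene Mmp12, at 1.88, 1.44 and 1.39 CPM in MDSC and 2844 and 648 CPM in MSC, in list sums of 1404, 1344 and 1390.3 CPM in MDSC and 3514 and 1290.2 CPM in MSC. Which cells carried the metalloprotease RNA was not tested. Mmp2 was at 0.442, 1.32 and 0.852 CPM in MDSC and 115 and 108 CPM in MSC. Mmp13, a collagenase of bone, was at 0.773, 0.721 and 0.959 CPM in MDSC and 233 and 104.9 CPM in MSC. All 3 tested TIMP inhibitors were lower in MDSC, Timp1 at 0.222 ± 0.106 against 272 ± 146 CPM (SD, n = 3 and 2). Lower too were 9 of 11 laminin chains and 11 of 26 tested ADAM and ADAMTS genes, of which 4 were higher, or 1 without MSC 1. Of 26 tested integrin subunits 7 were higher (4 without MSC 1) and 11 lower. Leukocyte Itgal at 429 ± 6.805 against 27.6 ± 23.4 CPM and Itgb7 at 175 ± 9.82 against 8.45 ± 1.02 CPM were higher in MDSC. The collagen receptor chain Itga11 at 0.0355 ± 0.0615 against 78.1 ± 40.9 CPM and the matrix receptor chain Itgb5 at 14.3 ± 2.91 against 547 ± 141 CPM were lower. Of 53 tested cadherin and protocadherin genes 39 were lower and 4 higher, with Cdh11, the stromal cadherin, at 0, 0.1202 and 0.213 CPM in MDSC and 95.7 and 156 CPM in MSC.

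Macrophage genes were among the most abundant of MSC, so the label names only some of the cell types whose markers were present. Of 22 macrophage genes, 20 were lower in MDSC and 1 higher (median log2 fold change -4.47), and the list summed to 6024, 6274 and 6294 CPM in MDSC and 37507 and 24499 CPM in MSC. Lyz2, given below, made up 5672 of the mean sum of 6197 CPM in MDSC and 15443 of 31003 CPM in MSC. Adgre1 (F4/80) was at 29.6, 36.2 and 32.8 CPM in MDSC and 657 and 578 CPM in MSC. Cd68, a lysosomal glycoprotein, was at 56.98, 58.3 and 54.2 CPM in MDSC and 1781 and 1239 CPM in MSC. The mannose receptor gene Mrc1 was at 28.8, 27.7 and 28.1 CPM in MDSC and 512 and 707 CPM in MSC. MSC were above MDSC in both libraries (log2 fold changes -4.23, -4.74 and -4.43, edgeR adjusted p at most 3.4e-05). Gpnmb, a lysosomal glycoprotein of lipid-laden macrophages and osteoclasts, was at 4.31, 3.25 and 3.41 CPM in MDSC and 9729 and 4449 CPM in MSC (ENSMUSG00000029816, chromosome 6, 49036518 to 49058182). Trem2, a lipid receptor of such cells, was at 6.74, 5.89 and 6.07 CPM in MDSC and 1344 and 820.2 CPM in MSC. The complement gene C1qa was at 22.2, 18.4 and 19.2 CPM in MDSC and 586 and 408 CPM in MSC. Apoe, an apolipoprotein that macrophages and stroma make, was at 165, 160.03 and 173 CPM in MDSC and 6612 and 9418 CPM in MSC. In these 4 genes both MSC libraries lay above every MDSC library. Fcrls, a receptor of tissue macrophages, had a ratio of 2291-fold (95% counting interval 783 to 11112) in favour of MSC. Lyz2, the lysozyme of all myeloid cells, was high in both groups at 5502, 5750.4 and 5765 CPM in MDSC and 17754 and 13132 CPM in MSC, and its call ended without MSC 1 (edgeR adjusted p = 0.115). Cd163, a haemoglobin scavenger receptor, was the exception, at 14.1, 12.99 and 13.3 CPM in MDSC and 1.56 and 2.63 CPM in MSC. Its call as higher in MDSC ended when any library was left out (edgeR adjusted p 0.0508 to 0.139). Without MSC 1, without MSC 2 and with the MDSC libraries summed, 18, 17 and 14 macrophage genes were lower.

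Lysosomal protease genes held the largest shares of counts in MSC, Ctsd 1.87% and Ctsb 1.76%. Per kilobase of transcript the ferritin gene Ftl1, at 13307 CPM per kb, stood above Ctsd at 8394 and Ctsb at 3054. Ctsd was at 924, 918 and 936 CPM in MDSC and 24889 and 14581 CPM in MSC. Ctsb was at 614, 618 and 609 CPM in MDSC and 21768 and 15196 CPM in MSC. MSC 1 was above MSC 2 in both and each library was over 10-fold above MDSC. Of 14 tested cathepsins 8 were lower in MDSC and 3 higher, and the higher ones were the neutrophil protease gene Ctsg, Ctse at 400.1 ± 3.65 against 10.1 ± 0.274 CPM (SD, n = 3 and 2), and the lymphocyte protease gene Ctsw at 12.9 ± 0.937 against 0.568 ± 0.0664 CPM. Psap, whose product activates lysosomal lipid hydrolases, was at 1782, 1789 and 1802 CPM in MDSC and 17578 and 11093 CPM in MSC. Osteoclast genes, of a macrophage relative that dissolves bone, were mixed: Atp6v0d2, a proton pump subunit, was at 0.331, 0.2405 and 0.3196 CPM in MDSC and 471 and 167 CPM in MSC, while Dcstamp, Ocstamp, Calcr and Oscar were too low to test. Of 12 Fc and complement receptor genes 6 were lower in MDSC and 3 higher, C3ar1 being lower at 4.64, 4.93 and 5.11 CPM in MDSC and 704 and 483 CPM in MSC. Fcrla, a B cell gene, was higher at 77.5, 81.9 and 82.1 CPM in MDSC and 0.104 and 0.439 CPM in MSC. Of 13 tested genes of the Ms4a family 6 were higher in MDSC and 4 lower, or 2 lower with the MDSC libraries summed. Ms4a7 of macrophages was at 1.33, 1.804 and 2.13 CPM in MDSC and 344 and 353 CPM in MSC. Ms4a1 (CD20) of B cells was at 315, 318 and 335 CPM in MDSC and 0.208 and 0.351 CPM in MSC.

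The promoter of Mmp12, macrophage elastase, is shown beside those of the neutrophil genes because it holds the same ETS letters although the gene was high in the other group. It lies on the plus strand at chr9:7344147-7344396 with the match at -88.
Mmp12: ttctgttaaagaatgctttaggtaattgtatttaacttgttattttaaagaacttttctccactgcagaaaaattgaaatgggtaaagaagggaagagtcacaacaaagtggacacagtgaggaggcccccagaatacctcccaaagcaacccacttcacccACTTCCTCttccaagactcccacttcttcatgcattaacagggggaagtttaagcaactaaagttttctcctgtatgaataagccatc

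Leukocyte genes shared by all blood cells were present in both groups. Ptprc, encoding CD45 (ENSMUSG00000026395, chromosome 1, 138062861 to 138175708), was at 1577, 1569 and 1523 CPM in MDSC and 236 and 191 CPM in MSC, a log2 fold change of 2.86 ± 0.35 (edgeR adjusted p = 4.1e-06). Both MSC libraries held CD45 transcripts, though every MDSC library was above them. Of 16 pan-leukocyte genes, 6 were higher in MDSC and none lower (median 0.93), and the list summed to 10879, 10829 and 10925 CPM in MDSC and 7224 and 5118 CPM in MSC. The actin bundler Lcp1 was at 1630.02, 1637 and 1664 CPM in MDSC and 1836 and 1508 CPM in MSC. Spi1, which encodes PU.1, was at 225, 208 and 229 CPM in MDSC and 391 and 264 CPM in MSC. Neither passed (edgeR adjusted p = 0.983 and 0.298). Cytip, an adaptor of lymphocytes and dendritic cells, had the largest difference of the list, at 746, 761 and 758 CPM in MDSC and 10.7 and 7.99 CPM in MSC. Without MSC 2 the 6 calls became 3.

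Endothelial transcripts were low, and the list sum was raised in MSC 2 alone. The list summed to 17.1, 17.9 and 15.8 CPM in MDSC and 14.3 and 111 CPM in MSC. Emcn (endomucin) was at 0.331, 0 and 0 CPM in MDSC and 0.312 and 22.5 CPM in MSC. Cdh5, the endothelial cadherin, was at 0.994, 1.44 and 0.533 CPM in MDSC and 0.833 and 17.03 CPM in MSC. In both genes MSC 2 was above the other 4 libraries. The 4 endothelial calls as lower in MDSC became 0 without that library and 9 without MSC 1. The log2 fold change of Cdh5 went from -3.17 to 0.23 without MSC 2 (edgeR adjusted p = 0.934).

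Transcription factors of blood and of mesenchyme were called mostly in opposite directions. Of 28 factors of blood lineages 19 were higher in MDSC and 1 lower, with a median log2 fold change of 3.33. Pax5, which commits B cells, was at 84.7, 82.2 and 73.2 CPM in MDSC and 0 and 0.176 CPM in MSC. Gfi1, of granulocytes, was at 44.7, 42.3 and 44.6 CPM in MDSC and 0.104 and 0.0878 CPM in MSC. Ikzf3, of lymphocytes, was at 182, 182 and 172 CPM in MDSC and 0.208 and 0.263 CPM in MSC. Cebpa, a factor of myeloid progenitors, macrophages and fat cells, was the lower one, at 34.8, 36.7 and 34.6 CPM in MDSC and 337 and 212 CPM in MSC. Runx1 and Lmo2, broad blood factors, were nearly level, at 83.8 ± 4.41 against 61.9 ± 12.5 CPM and 133 ± 2.14 against 136 ± 24.8 CPM (SD, n = 3 and 2). Of 32 tested mesenchymal and skeletal factors 22 were lower and 2 higher (median -5.23). Prrx1, of limb and stromal mesenchyme, was at 0.663, 0.361 and 0.533 CPM in MDSC and 81.8 and 119 CPM in MSC. Tbx15 was at 0.1104, 0.1202 and 0 CPM in MDSC and 23.95 and 30.9 CPM in MSC. Snai2, of migrating mesenchyme, was at 0, 0 and 0 CPM in MDSC and 24.1 and 25.8 CPM in MSC. Against the floor, Snai2 was at least 223-fold higher in MSC. Zeb1 and Foxp1, both also lymphocyte factors, were the 2 that were higher in MDSC.

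Hox genes, which keep a record of position along the body, were higher in MSC wherever they were called, with 20 of 34 tested genes lower in MDSC and none higher. Their levels were low, with sums of 8.502, 7.82 and 7.35 CPM in MDSC and 63.9 and 73.6 CPM in MSC. Hoxa10 was at 0.331, 0 and 0.213 CPM in MDSC and 11.98 and 9.13 CPM in MSC. Hoxc10 was at 0, 0 and 0 CPM in MDSC and 10.6 and 11.6 CPM in MSC. Hoxa11 was at 0, 0 and 0 CPM in MDSC and 5.83 and 4.74 CPM in MSC. All 3 lie in posterior parts of their clusters, and both MSC libraries were at least 10-fold above MDSC in each (edgeR adjusted p at most 6.4e-06).

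Growth factor and guidance families had more members lower than higher in MDSC. Of 10 tested genes of the insulin-like growth factor family 8 were lower in MDSC and 1, the receptor Igf1r, higher. Igf1 was at 2.76, 2.65 and 3.196 CPM in MDSC and 329.5 and 341 CPM in MSC. Igfbp7 was at 0.442, 1.08 and 0.852 CPM in MDSC and 358 and 295 CPM in MSC. In the Wnt family 15 of 26 were lower and 1 higher (none without MSC 1), including those of secreted inhibitors. Sfrp1 was at 0.1104, 0.1202 and 0.213 CPM in MDSC and 174 and 94.04 CPM in MSC. Dkk3 was at 0.552, 0.1202 and 0.3196 CPM in MDSC and 186 and 114 CPM in MSC. Among semaphorins, plexins and neuropilins 13 of 28 were lower and 3 higher, or 1 higher without MSC 1: the immune semaphorin gene Sema4a was at 194, 187 and 197 CPM in MDSC and 18.02 and 9.66 CPM in MSC. The receptor gene Plxna1 was at 9.94, 10.1 and 11.1 CPM in MDSC and 449 and 355 CPM in MSC.

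No gene of DNA replication and mitosis passed edgeR's test, although all but 4 of the 24 had no overlap between the groups, as did 82.1% of all tested genes. At an unadjusted p under 0.05 edgeR gave 1 gene, and adjusted calls were 2 by DESeq2 and 1 by limma-voom. The median log2 fold change was 0.90 and the list summed to 3853, 3925 and 3918 CPM in MDSC and 1697 and 2425 CPM in MSC, with MDSC above both MSC libraries. Mki67 was at 832, 860.4 and 834 CPM in MDSC and 108 and 278 CPM in MSC (edgeR adjusted p = 0.0671), and DESeq2 called it (adjusted p = 0.0159). In a fit of MDSC and MSC only, 17 of the 24 were called higher in MDSC. All 5 libraries held such transcripts, with MSC 1 the lowest in Mki67. Myc was higher in MDSC at 317, 324 and 338 CPM in MDSC and 47.8 and 67.6 CPM in MSC (edgeR adjusted p = 0.00165). The inhibitors Cdkn2a and Cdkn2b, which rise in cultured and senescent cells, were at 0.331, 0.361 and 0 CPM in MDSC and 21.8 and 20.3 CPM in MSC and 0.994, 0.481 and 0.3196 CPM in MDSC and 33.6 and 30.5 CPM in MSC. D-type cyclins differed in direction. Ccnd1 was higher in MSC, at 3.42, 3.25 and 3.94 CPM in MDSC and 308 and 341 CPM in MSC. Ccnd3 was higher in MDSC, at 308, 284 and 295 CPM in MDSC and 61.2 and 65.8 CPM in MSC (edgeR adjusted p at most 4.4e-04 for these 4).

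Of 20 cholesterol and fatty acid synthesis genes 10 were lower in MDSC and 1 higher, with a median log2 fold change of -1.27. Sqle, the epoxidase that commits squalene to sterols, was at 17.9, 19.6 and 16.4 CPM in MDSC and 99.04 and 125 CPM in MSC. The desaturase gene Scd1, the exception, was at 555, 562 and 556 CPM in MDSC and 71.2 and 53.9 CPM in MSC. With the MDSC libraries summed 4 lower calls were made. Of 19 glycolysis and hypoxia genes 6 were lower and 2 higher, beside 25.6% and 20.4% of all tested genes. The 6 became 2 without MSC 1 and 0 with the MDSC libraries summed, and the 2 became 0 in those fits and without MSC 2. Tpi1, which interconverts triose phosphates, was at 153, 151 and 155 CPM in MDSC and 674 and 698 CPM in MSC. In the unfolded protein list 4 of 16 were higher and 1 lower, or 2 higher with any library left out and none lower without MSC 2 or any MDSC library. That list, too, stands beside 20.4% of all tested genes higher and 25.6% lower. Dnajb9 was at 233, 238 and 234 CPM in MDSC and 23.5 and 22.9 CPM in MSC. Herpud1, of the degradation machinery in the endoplasmic reticulum, was at 343, 336 and 352 CPM in MDSC and 56.03 and 52.4 CPM in MSC. Cytosolic ribosomal protein genes were nearly level, 3 of 83 higher and 3 lower, with none higher when any library was left out, and 1 of 13 mitochondrially encoded genes was higher, or none without MSC 1.

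The labelled strain left few traces that could be read in RNA. Foxn1, the gene altered in nude mice, is active in thymus and skin and was at 0, 0 and 0 CPM in MDSC and 0.104 and 0.176 CPM in MSC, too low to test in either group. Nnt, of the mitochondrial membrane, was at 42.3, 44.6 and 40.6 CPM in MDSC and 61.96 and 74.1 CPM in MSC. Its call as lower in MDSC (edgeR adjusted p = 0.0264) ended when any library was left out (edgeR adjusted p 0.0507 to 0.172). Xist, the RNA of the inactive X chromosome, was at 615, 621 and 580.4 CPM in MDSC and 335 and 593 CPM in MSC and did not pass (edgeR adjusted p = 0.759). The Y-linked genes Ddx3y, Kdm5d and Uty had 0 counts in all 5 libraries.

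Over the 69 lists, 34 had more members higher than lower in MDSC and 31 had more members lower. Lists share members, so these counts are not separate observations. Other lists also held 17 of the 27 fibroblast and mesenchymal genes, 7 of the 15 mature neutrophil genes and 15 of the 28 factors of blood lineages. The keratin family had 6 of 13 tested members higher and 2 lower, all at low levels, with sums of 30.9, 30.4 and 32.2 CPM in MDSC and 5.103 and 17.6 CPM in MSC. The sex chromosome list had 2 of 8 higher, Kdm6a and Kdm5c, neither of which was called without MSC 1 (edgeR adjusted p 0.0914 and 0.0918). Without MSC 2 no keratin was lower. In the list of cell cycle inhibitors and cyclins 3 of 16 were higher and 8 lower, or 5 lower without MSC 1.

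**Figure D4:**
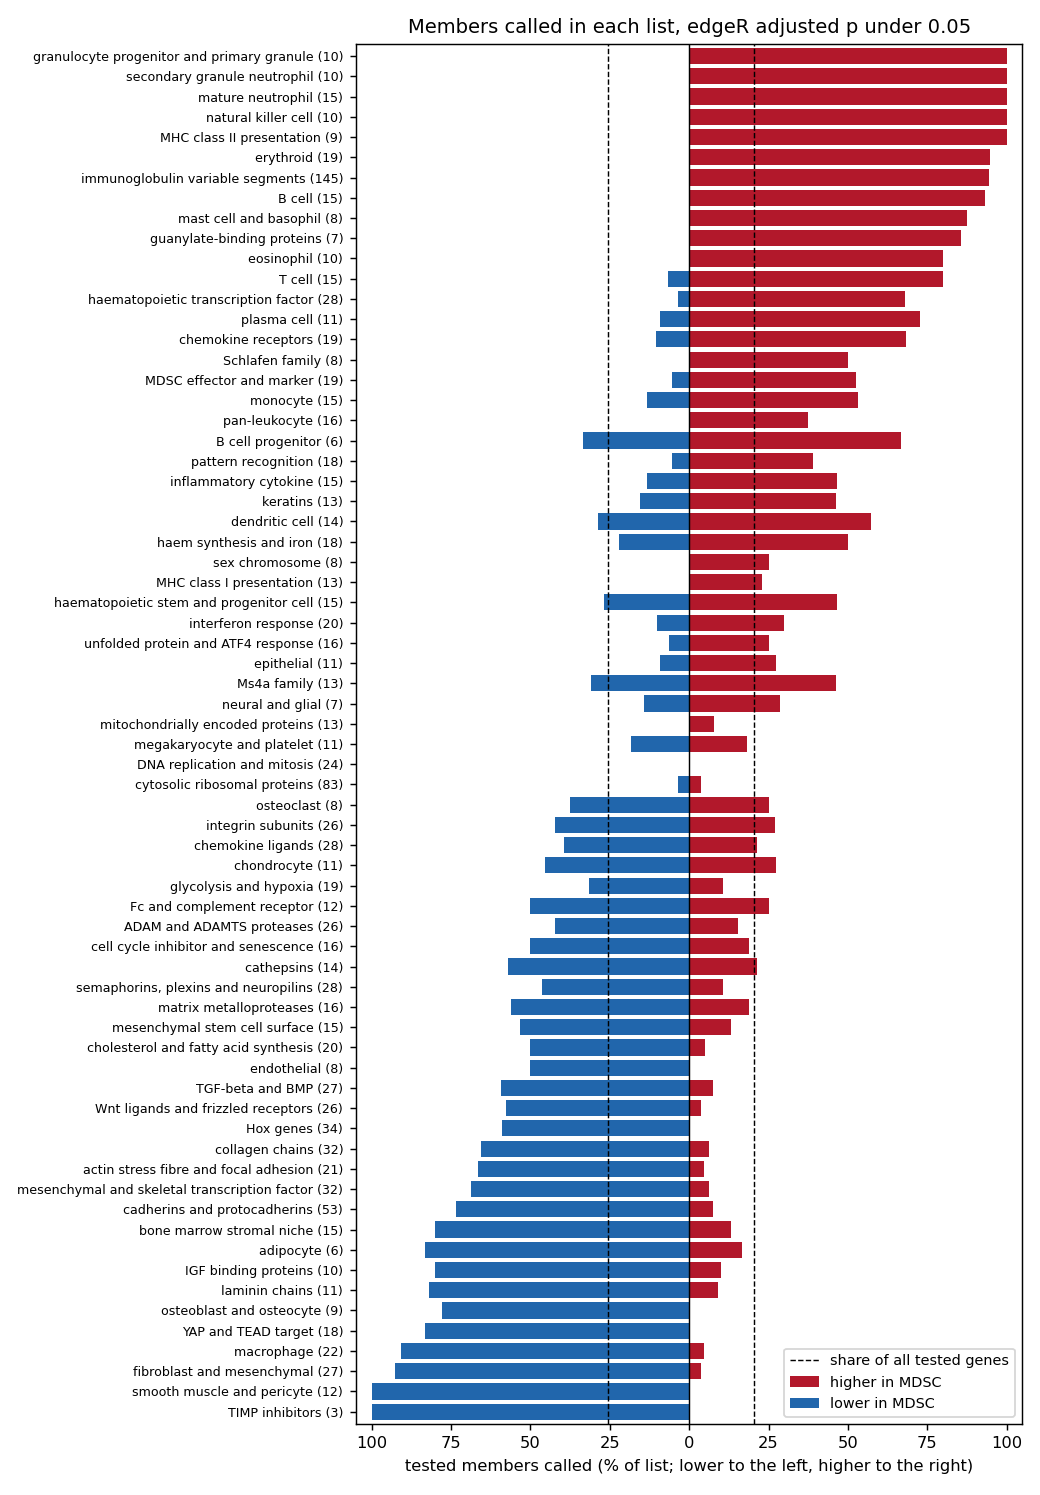
Share of tested members of each gene list (rows) called higher or lower in MDSC by edgeR, as a percentage to the right and left of 0, with the 20.4% and 25.6% of all tested genes as dashed lines and the number tested in brackets. Neutrophil, B cell, erythroid and class II lists are called higher almost throughout, and matrix, contractile and mesenchymal factor lists lower.

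The 2 MSC libraries differed from each other more than the MDSC libraries did. Of 9102 genes at 20 CPM or more, 592 were over 2-fold apart between MSC 1 and MSC 2, against 99 to 112 between pairs of MDSC libraries. Every such value compares 1 library with 1, so there is no test. MSC 2 held more of some transcripts that were abundant in MDSC. All 10 secondary granule genes and 14 of 15 genes of the mature neutrophil were higher there than in MSC 1. Other lists leaned the same way, with 15 of 15 endothelial and 23 of 24 DNA replication and mitosis genes higher in MSC 2. Some leaned to MSC 1, with 77 of 86 cytosolic ribosomal protein and 14 of 16 pan-leukocyte genes higher there. The share over all genes was not counted. The sum of secondary granule genes was 9.48 and 114 CPM in MSC 1 and MSC 2, that of B cell genes 270.1 and 847 and that of immunoglobulin variable segments 4.06 and 120.2. Other values were level or went the other way: the primary granule sum was 51.7 and 49.6 CPM, most of it from Srgn, Hbb-bs was at 2.19 and 0.702 CPM, and 5 of 15 B cell genes were higher in MSC 1. Single genes showed the same, with Igkc at 2.71 and 96.3 CPM, Jchain at 1.25 and 60.3 CPM and S100a9 at 4.27 and 50.8 CPM. Endothelial Plvap, at 0.625 and 30.8 CPM, and Akr1c18, a steroid-converting enzyme at 0.729 and 27.04 CPM, also stood above MSC 1.

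MSC 1 had the higher sums of macrophage, fat and cartilage genes, each carried by few members. The macrophage sum was 37507 and 24499 CPM in MSC 1 and MSC 2, the adipocyte sum 3069 and 1369 and the chondrocyte sum 382 and 148, while the fibroblast sum was nearly level at 13572 and 13753. Of 22 macrophage genes 13 were higher in MSC 1 and 9 in MSC 2, with Gpnmb, Lyz2 and Cd36 furthest above. Most of the fat difference came from Lpl. Col2a1, at 348 and 94.4 CPM, made the cartilage difference, while Col11a1 at 14.8 and 32.7 and Sox9 at 3.96 and 8.78 were higher in MSC 2. The genes furthest above MSC 2 were Tpm3-rs7, a copy of a tropomyosin gene whose reads may be shared with the parent, at 357 and 2.63 CPM, Cd200r4 at 31.6 and 0.439, Ahcy at 72.6 and 2.46, Fggy at 29.3 and 1.14 and the protease gene Pappa2 at 39.2 and 2.55. Igf2, a fetal growth factor, was at 82.8 and 8.61 CPM. Neutrophil, B cell and erythroid calls did not rest on either library: 10, 10, 15, 14 and 18 members of the early granule, secondary granule, mature neutrophil, B cell and erythroid lists were higher in MDSC without MSC 1 and again without MSC 2.

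**Figure D5:**
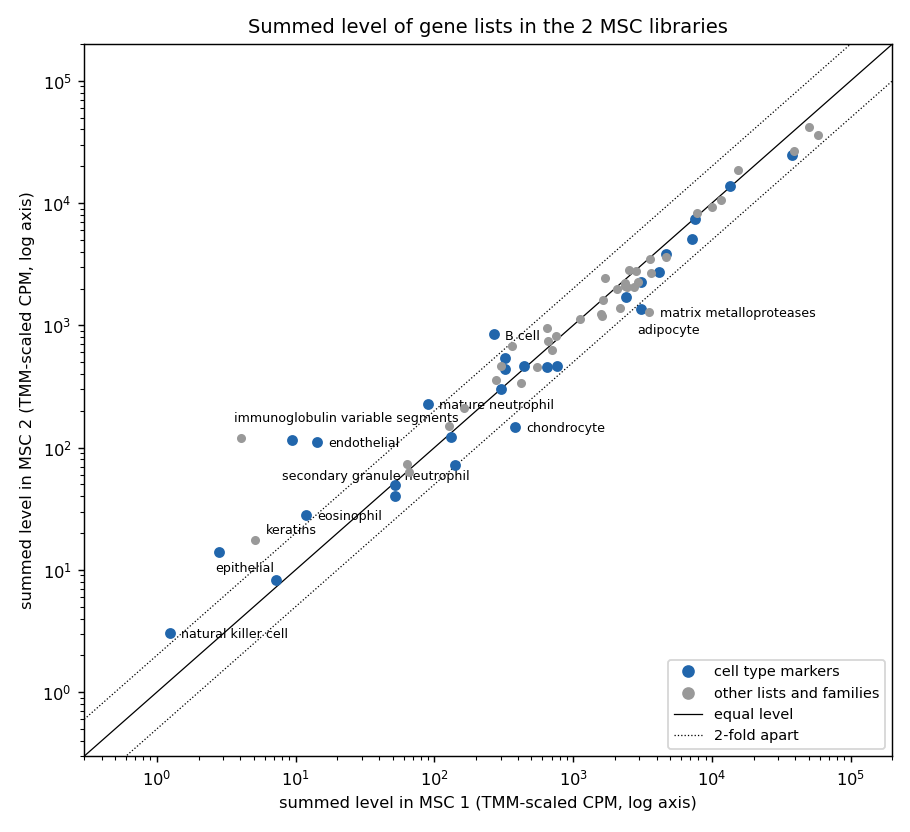
Summed level of each gene list (points) in MSC 1 (x axis) and MSC 2 (y axis), in TMM-scaled CPM on log axes, with lines for equal levels and for a 2-fold difference. Lists over 2-fold apart are named. Immunoglobulin segments (4.06 and 120.2 CPM) and secondary granule genes (9.48 and 114 CPM) lie above the lines, and adipocyte and chondrocyte genes below.

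A small number of well-expressed genes had 0 counts in every library of one group. There were 34 such genes at 20 CPM or more in MDSC with 0 counts in MSC, 25 of them coding for proteins. Beside the red cell genes already given these included Stfa2 and Stfa3, neutrophil protease inhibitors with near-identical copies, at least 608-fold and 433-fold higher, and Dpp4, a surface peptidase of lymphocytes, at least 361-fold higher. Conversely 12 genes had 0 counts in MDSC. Rspo2, a secreted booster of Wnt signals, was at 109 and 108 CPM in MSC and at least 967-fold higher there, the collagen-binding proteoglycan gene Fmod at least 798-fold, the microtubule-linked kinase gene Dclk1 at least 576-fold and the matrix gene Srpx2 at least 473-fold. The others named by size were the calcium-binding S100a16, the Wnt inhibitor Nkd2, the glypican Gpc6 and the elongation factor Eef1a2, each at least 212-fold higher in MSC.

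Several noncoding classes had more genes higher than lower in MDSC, the group with more intron reads. Of 127 tested genes of the class to be experimentally verified (TEC), 53 were higher in MDSC and 6 lower, and of 366 intergenic long noncoding genes 84 and 49. Antisense genes counted 53 higher and 31 lower of 211, and protein-coding genes 2757 and 3887 of 14176. The labels do not say whether counting used strand, so reads of antisense genes and their partners may be mixed. With the intron share as a covariate 2475 genes were higher and 4123 lower, and these held 1266 of the 3212 higher and 2325 of the 4047 lower genes, with 33 called in the opposite direction. Since the intron share did not overlap between the groups, intron share and group cannot be told apart.

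The promoter letters shown above were common well beyond the genes that differed. Over windows of 300 bases (250 before and 50 after the start), searched on both strands for the 11391 tested genes that matched RefSeq by symbol, GAGGAAGT was found in 3.92% of genes higher in MDSC, 3.03% of genes lower and 3.27% of all tested. The C/EBP letters TTGCGCAA were in 0.356%, 0.0658% and 0.255%, the AP-1 letters TGACTCA in 4.32%, 4.15% and 3.80%, the GATA letters AGATAAG in 2.72%, 1.45% and 1.85%, and the TEAD letters GGAATG in 11.3%, 13.9% and 11.8%. No test was made of these shares, and among all 27025 RefSeq promoters they were 3.28%, 0.185%, 5.17%, 3.07% and 14.6%.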

How the data were processed

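The authors deposited expected counts (estimated counts of read pairs) per Ensembl gene. They also deposited a table of alignment quality with the percent of reads by region, used for the intron share. The tools STAR, RSEM 1.2.26 and DESeq2 come from the submitters' processing notes, which give no roles. Coordinates are those of the deposited annotation, whose build was not stated in the sources read here. Of 43432 genes, 8.37% of values were not whole and counts were rounded. Groups came from the labels, and replicate numbers follow accession order only. Genes were kept by filterByExpr (minimum count 10, minimum total 15), scaled by TMM and fitted with edgeR 4.0.16 (R 4.3.3; robust quasi-likelihood, one mean per group over all 20 libraries, 13 residual degrees of freedom, two-sided, Benjamini-Hochberg over all tested genes at 0.05). Lists were described by counts and medians without a set test.

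Named genes were the 12 largest differences each way at 20 CPM or more with no overlap, the 8 most abundant per group, up to 4 called members per list and direction at 5 CPM or more, a fixed panel, and the 5 largest ratios each way between the MSC libraries; other list members were named after their values were seen, to describe a list. Some genes met the rule and are not reported here. The comparison, the 69 gene lists and the panel were chosen with earlier results of these data known. A fold against 0 counts was bounded with a floor of 3 counts over the group, and a fold against 1 to 3 counts was given with a 95% exact counting interval. Both cover counting error only. The floor lay at 0.112 CPM in MDSC and 0.143 CPM in MSC. Alternatives were 2 other scalings (RLE, upper quartile), a table without the filter, DESeq2 1.42.0, limma-voom (limma 3.58.1), a fit of both groups alone, glmTreat, each library left out, MDSC summed to 1 sample and the intron share as covariate. The fit was tested on simulated counts of this design for 13502 genes. It called 2 of 48 genes with a 2-fold change, 32 of 62 with a 4-fold change, 56 of 64 with a 16-fold change and 3 of 13328 without one. Few genes were changed there, and in MDSC alone, whereas 46% of tested genes were called in the data. These rates therefore do not describe the real comparison. Python 3.11.15 (numpy 2.4.6, pandas 2.3.3, scipy 1.17.1, matplotlib 3.10.9) made tables and figures, and promoter windows came from RefSeq on GRCm38.p6.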

Additional observations from a re-analysis of the deposited data

How the results depend on the processing

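The number of calls moved with the libraries used. With the intron share as a covariate 33 genes were called in the opposite direction, and under the other alternatives none was. Genes higher in MDSC numbered 3212, against 2045 with the MDSC libraries summed to 1 sample, 5515 in a fit of both groups alone, and 2008 to 2746 with 1 library left out, the lowest without MSC 1. Genes lower in MDSC numbered 4047, against 2043 with MDSC summed and 2933 to 3387 with 1 library left out. Over 2-fold, 2976 were higher (1983 to 2631 with 1 library left out, the lowest without MSC 1) and 3696 lower (2043 with MDSC summed, 2452 by glmTreat). DESeq2 called 3573 and 3799, limma-voom 3588 and 3993, RLE scaling 3480 and 3706, upper quartile scaling 2911 and 4458 and no filter on low counts 3215 and 3807. The median over all genes (log2) shifted by -0.13 under upper quartile scaling and by 0.07 under RLE. Genes with 0 counts in MSC rose from 34 to 100 when up to 3 counts were allowed and to 108 at 5 CPM or more; those with 0 in MDSC rose from 12 to 53 and 56. The chi-square of the MSC pair was 41.7, and 49.0 over genes with at least 100 counts. The counts of recomputed genes and lists that follow leave out glmTreat and the fit with the intron share as covariate. How the genes of the text and the lists moved in that fit was not counted. Of 2998 recomputed values of 251 genes of the text, 2874 stayed on their side of the threshold, 103 lost it, 18 gained it and 3 reversed. Over the left-out libraries the Cdh5 log2 fold change ran from -4.1 to 0.23 (without MSC 2), that of Ahcy from -4.52 to 0.36 (without MSC 1) and that of Tpm3-rs7 from -2.35 to 4.73 (without MSC 1). With MDSC summed, Hmox1, Cd93, Alpl and Tpi1 were among those that lost it. In the fit of both groups alone, Tgfb1, Cd44, Spi1, Runx1, Runx2, B2m, Tfrc, Nos2 and Ly6a were called. List counts were within 1.5 times in 1461 of 1656 cases; with MDSC summed, chemokine receptors higher went from 13 to 8 cadherins lower from 39 to 25, integrins lower from 11 to 6 and insulin-like growth factor genes lower from 8 to 5. In the fit of both groups alone, higher calls went from 3 to 9 for class I, 7 to 13 for pattern recognition, 6 to 13 for interferon and 3 to 29 for ribosomal protein genes. List counts that stayed at 0 were among those taken as within 1.5 times. No paired analysis was possible because the labels give no replicate numbers. Depth limits single genes below about 1 CPM, near 10 counts a library.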
